A study of Mus musculus with 9 samples.

Results

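The genes described here copy the genome in S phase: they license origins, open the helix, make the new strands, supply nucleotides and rebuild chromatin behind the fork. A list of 44 such genes was named from general knowledge of the replication machinery, and its members were found on the arrays by gene symbol. Earlier results of these data were known when it was named, so its counts are no independent support. Of the 44, 43 had a probe set annotated to that gene alone, and all 43 were among the 9097 genes tested out of 18194 measured. Where a gene had several probe sets, the brightest on average stood for it. Chaf1a, the large subunit of chromatin assembly factor 1, has no such probe set in the annotation used and was not analysed here. The arrays compare marrow cells of FVB/NJ mice in 3 groups of 3: wild type mice (WT), leukemic recipients in the early phase (E, with 1% to 5% leukemic cells in the marrow) and leukemic recipients in the medium phase (M, with 5% to 50%). All 9 samples were sorted as CD45.1-Ter119- bone marrow cells, which removes blood cells that carry CD45.1 and the later erythroid cells that carry Ter119, and the labels call them stromal cells and biological replicates. The labels used here do not state the leukemia given to the recipients, the age of the mice or whether animals were pooled, and cells of the latent and late phases were not analysed here. Values are log2 signals from the MAS5 software, and each comparison was tested with limma over all genes, with a call at a Benjamini-Hochberg adjusted p under 0.05.

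DNA replication starts at origins bound by the origin recognition complex, where CDC6 and CDT1 load the MCM2-7 helicase in G1. In S phase MCM10, CDC45 and GINS turn that helicase on, primase and DNA polymerase alpha start each strand, and polymerases delta and epsilon extend it with the PCNA clamp and its loader. In mammals many of these genes are transcribed together at the G1/S border under E2F factors held back by the retinoblastoma protein, so their RNA is widely read as a sign of cycling cells, and bone marrow holds many cycling blood precursors. In bulk samples, fewer cycling cells and less RNA per cell cannot be told apart.

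The promoters printed here show 4 origin and helicase genes that hold an E2F element and, for contrast, Pcna, which holds none in this window. Each runs 5′ to 3′ along the gene's strand from 250 bases before to 50 bases after the annotated start (RefSeq, mouse build GRCm38.p6), with E2F elements and CCAAT boxes of either strand in capitals.
Orc1 chr4:108579204-108579503, plus strand: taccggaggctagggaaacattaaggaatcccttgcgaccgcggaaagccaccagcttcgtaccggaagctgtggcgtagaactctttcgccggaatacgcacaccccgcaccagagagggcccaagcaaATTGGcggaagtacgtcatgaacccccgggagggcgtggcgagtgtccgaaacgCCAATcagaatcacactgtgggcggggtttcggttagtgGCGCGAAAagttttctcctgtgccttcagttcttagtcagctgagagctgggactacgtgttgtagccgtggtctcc
Mcm3 chr1:20820263-20820562, minus strand: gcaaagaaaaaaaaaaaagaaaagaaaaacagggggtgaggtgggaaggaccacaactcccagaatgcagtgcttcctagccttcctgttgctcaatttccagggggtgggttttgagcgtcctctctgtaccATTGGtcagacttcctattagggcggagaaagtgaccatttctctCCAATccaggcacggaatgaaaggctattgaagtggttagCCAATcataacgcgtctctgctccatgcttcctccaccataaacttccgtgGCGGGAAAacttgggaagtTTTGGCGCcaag
Mcm5 chr8:75109259-75109558, plus strand: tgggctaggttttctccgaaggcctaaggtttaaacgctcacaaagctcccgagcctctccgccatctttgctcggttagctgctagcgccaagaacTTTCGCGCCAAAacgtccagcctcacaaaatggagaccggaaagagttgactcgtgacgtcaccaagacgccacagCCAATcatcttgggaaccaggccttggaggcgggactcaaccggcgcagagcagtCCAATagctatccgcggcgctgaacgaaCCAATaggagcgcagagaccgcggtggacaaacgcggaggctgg
Mcm6 chr1:128359656-128359955, minus strand: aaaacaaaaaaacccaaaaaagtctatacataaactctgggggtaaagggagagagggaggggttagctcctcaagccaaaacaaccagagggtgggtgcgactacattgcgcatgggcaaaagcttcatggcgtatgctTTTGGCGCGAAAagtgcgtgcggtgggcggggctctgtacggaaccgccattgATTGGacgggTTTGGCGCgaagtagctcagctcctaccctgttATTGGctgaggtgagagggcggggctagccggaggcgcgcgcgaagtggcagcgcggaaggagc
Pcna chr2:132253131-132253430, minus strand: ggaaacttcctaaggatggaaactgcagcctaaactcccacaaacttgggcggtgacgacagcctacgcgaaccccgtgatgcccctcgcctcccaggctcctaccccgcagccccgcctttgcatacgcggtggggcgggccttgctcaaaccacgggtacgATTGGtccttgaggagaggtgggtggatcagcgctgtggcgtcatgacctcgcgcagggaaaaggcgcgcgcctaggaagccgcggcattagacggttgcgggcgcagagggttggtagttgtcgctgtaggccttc
The E2F element was searched as TTTCGCGC, TTTGGCGC, TTTCCCGC or TTTGCCGC on both strands, where matches of opposite strands can overlap. Of the 44 members, 37 had a promoter in the table and 14 of these held an E2F element (37.8%): Orc1, Cdc6, Cdt1, Mcm3, Mcm5, Mcm6, Mcm7, Pola1, Pold1, Pole2, Rfc3, Lig1, Uhrf1 and Dnmt1. By promoter the share was 14 of 45 (31.1%), against 744 of 32851 in the whole table (2.26%) and 412 of 9592 for genes tested on the arrays (4.30%). A CCAAT box (CCAAT, both strands) stood in 55.6% of the members' promoters, against 37.9% of those of the tested genes and 37.4% of all. The cell cycle homology region of late cell cycle genes (TTTGAA, both strands) stood in 11.1% of the members' promoters, against 12.2% of those of the tested genes and 17.9% of all. These matches describe letters in a window and show no binding.

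The arrays differ in ways that touch every result below. Each has the same trimmed mean signal, yet the median probe set read 5.60 to 5.68 in WT, 5.43 to 5.60 in E and 6.24 to 6.28 in M (log2). The poly-A control RNAs added before labelling were 2.01 times as bright in M as in WT and differed by -0.01 (log2) between E and WT. The median change of all genes tested was -0.19 in M against WT as deposited, -1.24 when every array was centred on its median and -1.20 when arrays were scaled to the control RNAs, so changes are also given beside that of all genes. Of all genes tested, 82.2% were lower in M than in WT after centring and 79.4% after scaling to the controls, with 43 of 43 members lower in both. Marker levels differ by group too. The 12 mesenchymal stroma markers summed to a linear signal of 4653 to 5339 in WT, 4991 to 5344 in E and 86740 to 107461 in M, and 13 of 15 granulocyte markers to 10420 to 11752 in WT, 13322 to 14445 in E and 97015 to 117361 in M. Markers of the labelled cell type were thus low in WT and E: Cxcl12, the marrow niche chemokine, averaged 8.63 ± 0.11 in WT, 8.85 ± 0.07 in E and 12.79 ± 0.03 in M (log2, SD, n = 3 each). The 15 erythroid markers measured, of 20 listed, summed to 101403 to 112324 in WT, 91508 to 95896 in E and 58732 to 117449 in M. The 12 pan-leukocyte markers summed to 5464 to 6140 in WT, 4186 to 4454 in E and 10629 to 18994 in M. No marker read 0 on every array of a group, and the part of cell composition in the changes below was not tested.

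In M, most of the replication machinery was lower than in WT. Of 43 members 40 were lower in M than in WT and 0 were higher, where 43.5% of all genes tested were lower and 25.3% higher. The median log2 difference of the members was -0.73, with a range of -1.17 to -0.23, and all 43 lay below 0, while the median of all genes was -0.19. As ratios, M stood at 0.446 times the WT signal for Pola2 and at 0.852 times for Pcna, the ends of the range, with a median of 0.602. In 41 of 43 members every M array read below every WT array, as did 45.5% of all genes tested. Tyms, E2f1 and Ccne2 did not pass the test.

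**Figure D1:**
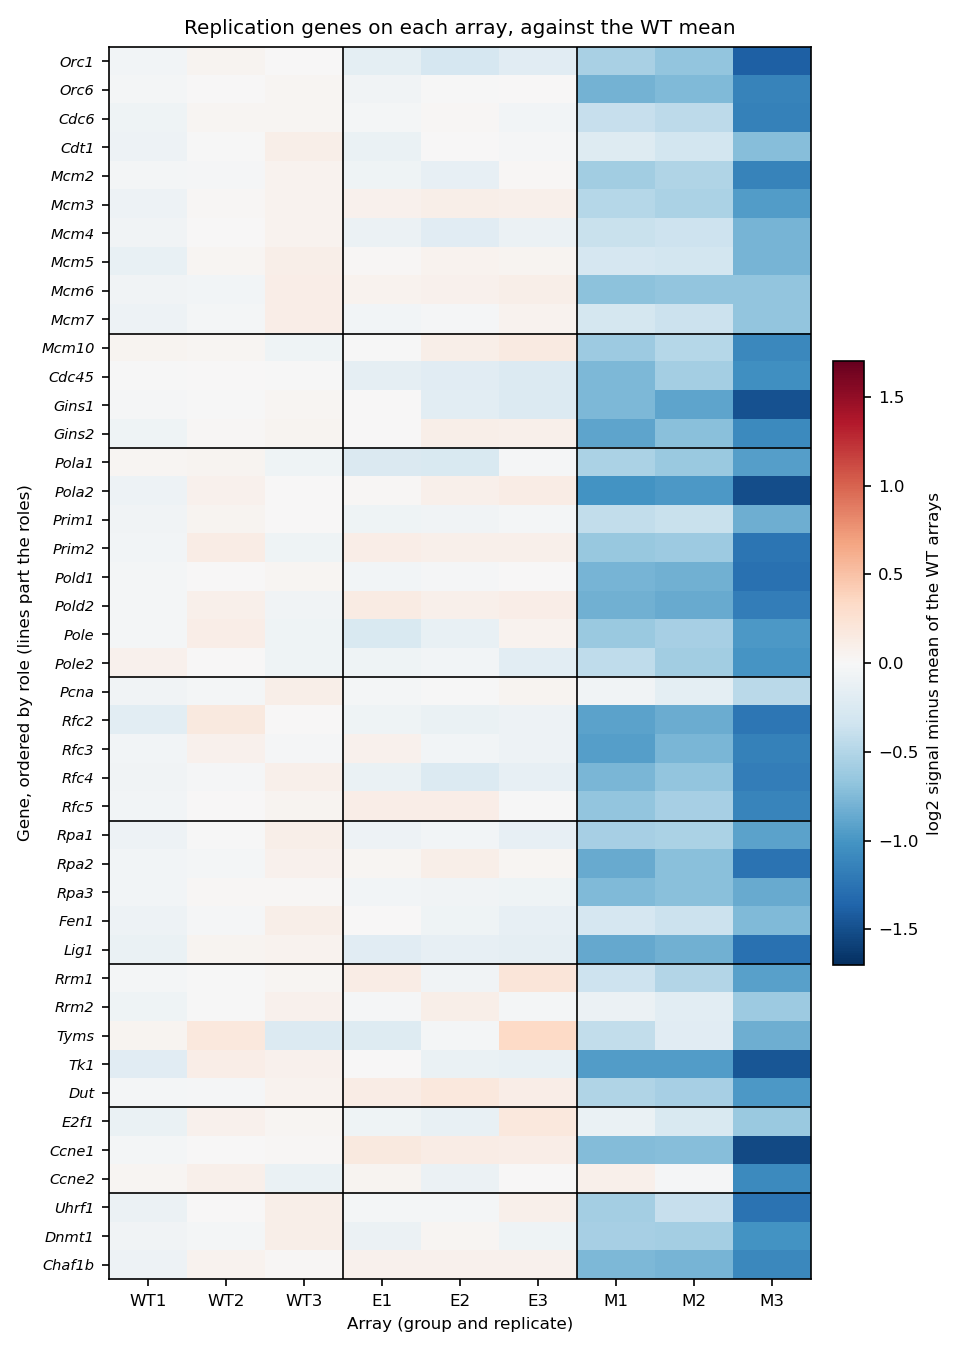
Signal of 43 replication genes (rows, ordered by role) on each of the 9 arrays (columns), as log2 difference from the gene's mean over the 3 WT arrays; blue is lower and red is higher. WT and E columns are pale, M1 and M2 are blue in most rows, and M3 is the darkest column for 42 genes.

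The members were compared with genes of like signal, since 41 of 43 averaged over 10 (log2). Among 2782 tested genes with a WT mean of 10 to 12, 62.1% were lower in M and the median change was -0.37, while 13 of the 14 members in that band were lower with a median of -0.89. From 12 to 13, 73.6% of 779 genes were lower, with a median of -0.45, and 10 of 10 members were lower with a median of -0.87. From 13 to 15, 69.5% of 561 genes were lower, with a median of -0.32, and 17 of 17 members were lower with a median of -0.59. In each band, where all genes include the members, the members' median lay further below 0.

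**Figure D2:**
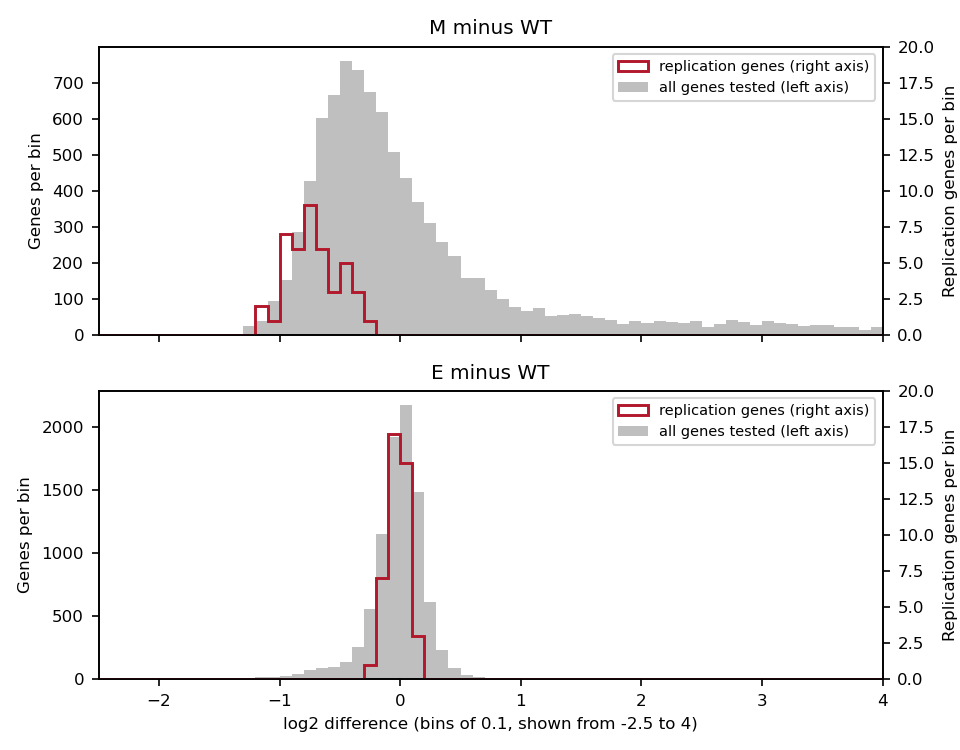
Histogram of log2 differences in bins of 0.1, M minus WT above and E minus WT below, for all 9097 genes tested (grey, left axis) and for 43 replication genes (red line, right axis). In M against WT the replication genes lie on the left, around -0.73, and in E against WT around -0.02.

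All 10 licensing genes were lower in M, with a median of -0.66. Orc1, the largest subunit of the origin recognition complex, read 10.58, 10.67 and 10.63 in WT, 10.45, 10.33 and 10.43 in E and 10.08, 9.95 and 9.23 in M. The M arrays lay below all others and M3 was far below M1 and M2, and the M minus WT difference was -0.87 ± 0.18 (SE, adjusted p = 0.0011). Orc6, the smallest subunit, read 11.32, 11.37 and 10.98 in M, against 12.08, 12.12 and 12.15 in WT, with no overlap and a difference of -0.90 ± 0.09 (SE, adjusted p = 9.47e-06). Cdc6, the ATPase that joins the complex to load the helicase, read 12.80, 12.75 and 12.05 in M, against 13.13, 13.22 and 13.23 in WT, a difference of -0.66 ± 0.16 (SE, adjusted p = 0.00325). Cdt1, which brings the helicase to the origin, read 14.13, 14.04 and 13.62 in M, against 14.27, 14.34 and 14.44 in WT, a difference of -0.42 ± 0.11 (SE, adjusted p = 0.00624). Both loaders were lower on every M array than on any WT array, by a margin that M3 widened. Without M3 the difference was -0.42 for Cdc6 (adjusted p = 1.16e-05) and -0.27 for Cdt1 (adjusted p = 0.00169).

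Mcm2 to Mcm7 encode the 6 subunits of one ring, and on their brightest probe sets all 6 were lower in M. Mcm6 read 13.56, 13.57 and 13.73 in WT, 13.69, 13.70 and 13.72 in E and 12.92, 12.95 and 12.95 in M. Its 3 M arrays were nearly level on this probe set, though not on its other bright one, and the difference was -0.68 ± 0.06 (SE, adjusted p = 2.51e-06). Mcm5 read 14.01, 14.17 and 14.24 in WT, 14.15, 14.20 and 14.19 in E and 13.85, 13.82 and 13.35 in M, and its M1 and M2 arrays lay close under WT while M3 lay well below, with a difference of -0.46 ± 0.12 (SE, adjusted p = 0.00438). Without M3 it was -0.30 (adjusted p = 0.000705). Mcm3 read 13.02, 12.96 and 12.55 in M, against 13.42, 13.52 and 13.56 in WT, with every M array below every WT array. The log2 differences of the rest of the ring were -0.75 for Mcm2, -0.66 for Mcm3, -0.50 for Mcm4 and -0.45 for Mcm7, with adjusted p from 0.000221 to 0.00136. On their brightest probe sets the subunits of the ring thus fell by 0.45 to 0.75 on the log2 scale. Their other bright probe sets ran wider. The differences there were -0.13 for Mcm4, -0.41 for Mcm6, -0.76 for Mcm2, -0.93 for Mcm5 and -0.97 to -0.75 for Mcm7. Those of Mcm3 are given below. On that Mcm4 probe set the groups overlapped, with 13.30, 13.35 and 12.90 in M, against 13.28, 13.56 and 13.13 in WT.

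All 4 genes of helicase activation were lower in M, with a median of -0.84. Gins1, a subunit of the GINS complex, read 12.54, 12.56 and 12.59 in WT, 12.57, 12.38 and 12.33 in E and 11.80, 11.66 and 11.08 in M. With Pola2 and Tk1 it is 1 of 3 members that fell by more than 1 on the log2 scale, and its difference was -1.05 ± 0.15 (SE, adjusted p = 0.000101). Gins2, another GINS subunit, read 10.24, 10.43 and 10.05 in M, against 11.07, 11.16 and 11.18 in WT, a difference of -0.89 ± 0.09 (SE, adjusted p = 9.95e-06). On their other bright probe sets the differences were -0.48 for Gins1 and -1.11 for Gins2. Cdc45, the third part of the active helicase, averaged 9.97 ± 0.23 in M and 10.76 ± 0.01 in WT (SD, n = 3 each), and Mcm10, which helps switch it on, read 10.67, 10.80 and 10.19 in M, against 11.33, 11.31 and 11.21 in WT. Their differences were -0.79 for Cdc45 (adjusted p = 5.16e-05) and -0.73 for Mcm10 (adjusted p = 0.00054), and none of the 4 genes had overlapping M and WT arrays.

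All 8 polymerase and primase genes were lower, with a median of -0.78. Pola2, the accessory subunit of DNA polymerase alpha, read 10.75, 10.91 and 10.84 in WT, 10.85, 10.92 and 10.96 in E and 9.82, 9.86 and 9.32 in M. It showed the largest drop of all members, -1.17 ± 0.13 (SE, adjusted p = 1.36e-05). Pola1, the catalytic subunit of the same enzyme, differed by -0.70 ± 0.11 (SE, adjusted p = 0.000143). The primase genes Prim1, which encodes the catalytic subunit, and Prim2 differed by -0.54 (adjusted p = 0.000685) and -0.84 (adjusted p = 0.0003). For polymerase delta, which makes most of the lagging strand, the catalytic gene Pold1 read 11.07, 11.03 and 10.58 in M, against 11.81, 11.86 and 11.89 in WT, and Pold2 read 10.60, 10.56 and 10.24 in M, against 11.39, 11.50 and 11.36 in WT. The drop was -0.96 for Pold1 and -0.95 for Pold2, with adjusted p of 2.1e-05 and 6.46e-06. Polymerase epsilon, which makes most of the leading strand, had differences of -0.73 for its catalytic gene Pole and -0.68 for Pole2.

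The clamp and its loader moved by unlike amounts on the probe sets used, which also differ in signal. Pcna has a single probe set, the brightest of the members, with a mean of 14.62 over all arrays. Those of the loader genes averaged from 10.98 for Rfc2 to 12.67 for Rfc4, and the part of signal level in this contrast was not tested. Pcna, the ring that tethers polymerases to DNA, read 14.63, 14.65 and 14.79 in WT, 14.66, 14.69 and 14.73 in E and 14.63, 14.53 and 14.23 in M. M1 lay just below the lowest WT array, and the difference of -0.23 ± 0.09 (SE, adjusted p = 0.0442) was the smallest of all members. Without M3 it was -0.11 and was no longer called (adjusted p = 0.0991), and leaving out a single WT or E array, whichever it was, also ended the call (adjusted p of 0.0575 to 0.148). The 4 loader genes measured fell by 0.79 to 0.99 on the log2 scale: Rfc2 differed by -0.99 ± 0.11 (SE, adjusted p = 1.63e-05), Rfc3 by -0.95 ± 0.10 (SE, adjusted p = 6.98e-06), Rfc4 by -0.87 ± 0.11 (SE, adjusted p = 3.83e-05) and Rfc5 by -0.79 ± 0.12 (SE, adjusted p = 0.000155). On its brightest probe set Rfc2 read 10.43, 10.49 and 10.11 in M, against 11.16, 11.51 and 11.34 in WT, so its lowest WT array lay well above its highest M array. On its other bright probe sets the Rfc2 difference was -0.55 and -0.54, and on the latter M2 (10.39) lay above WT3 (10.34). The other bright probe sets of Rfc3 and Rfc4 gave -1.07 and -0.94.

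Single-strand binding and Okazaki fragment genes were lower in 5 of 5, with a median of -0.77. Rpa3, the smallest subunit of replication protein A, read 12.47, 12.54 and 12.55 in WT, 12.48, 12.46 and 12.45 in E and 11.77, 11.81 and 11.66 in M. Its M arrays were tight, and its adjusted p was the smallest of the members, with a difference of -0.77 ± 0.06 (SE, adjusted p = 1.04e-06). Rpa1 differed by -0.67 (adjusted p = 8.6e-05) and Rpa2 by -0.94 (adjusted p = 3.16e-05). Lig1, the ligase that joins Okazaki fragments, averaged 11.88 ± 0.25 in M and 12.87 ± 0.09 in WT (SD, n = 3 each), a difference of -0.98 ± 0.11 (SE, adjusted p = 1.33e-05). Fen1, the nuclease that trims their flaps, differed by -0.47 ± 0.11 (SE, adjusted p = 0.0027).

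Genes of nucleotide supply were lower in 4 of 5, with a median of -0.59. Tk1, the S phase thymidine kinase, read 11.76, 12.06 and 12.02 in WT, 11.95, 11.84 and 11.82 in E and 11.01, 11.00 and 10.49 in M, and the difference was -1.12 ± 0.13 (SE, adjusted p = 2.47e-05). Rrm1 and Rrm2 encode the subunits of ribonucleotide reductase, which makes deoxyribonucleotides. Rrm1 differed by -0.59 ± 0.13 (SE, adjusted p = 0.00148), while Rrm2 read 14.39, 14.30 and 13.86 in M, against 14.42, 14.49 and 14.56 in WT, a difference of -0.30 ± 0.11 (SE, adjusted p = 0.0363). Without M3 the Rrm2 difference was -0.14 and was no longer called (adjusted p = 0.0503), and the call was also lost without E1, without E3 or without any 1 of the WT arrays (adjusted p of 0.0509 to 0.106). Dut, which clears dUTP, differed by -0.68 ± 0.10 (SE, adjusted p = 0.000134). Tyms, thymidylate synthase, read 7.78, 7.91 and 7.50 in WT, 7.51, 7.70 and 8.07 in E and 7.32, 7.54 and 6.90 in M, with overlapping groups and a difference of -0.48 ± 0.21 (SE, adjusted p = 0.0645). It passed without M2 (-0.62, adjusted p = 0.0321), while without M3 it was -0.30 (adjusted p = 0.188).

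Of the 3 genes at the G1/S switch, 1 was lower. Ccne1, cyclin E1, which activates CDK2, read 12.34, 12.38 and 12.39 in WT, 12.53, 12.49 and 12.47 in E and 11.63, 11.64 and 10.83 in M. On this probe set all M arrays lay below the others, at 0.501 times the WT signal (adjusted p = 0.000371). On the other bright probe set of Ccne1, M2 read 12.07, against 11.90, 12.25 and 11.84 in WT. Ccne2, the gene of cyclin E2, read 11.92, 11.98 and 11.77 in WT, 11.93, 11.79 and 11.89 in E and 11.98, 11.87 and 10.81 in M. M1 and M2 lay near the WT values and M3 about 1 log2 unit below, and the difference was -0.34 ± 0.24 (SE, adjusted p = 0.226), or 0.03 without M3 (adjusted p = 0.688). E2f1, an activator of the S phase genes, read 9.04, 9.22 and 9.17 in WT, 9.07, 9.01 and 9.32 in E and 9.03, 8.88 and 8.51 in M, a difference of -0.33 ± 0.14 (SE, adjusted p = 0.0564), and passed without M1 (-0.45, adjusted p = 0.0191), while without M3 it was -0.19 (adjusted p = 0.169). Chromatin genes were lower in 3 of 3, with a median of -0.74. Uhrf1, which reads hemimethylated DNA, differed by -0.74 ± 0.17 (SE, adjusted p = 0.0025), Dnmt1, which copies methylation to the new strand, by -0.72 ± 0.11 (SE, adjusted p = 0.000188), and Chaf1b, of chromatin assembly factor 1, by -0.88 ± 0.10 (SE, adjusted p = 1.31e-05). Without M3 the Uhrf1 difference was -0.49 (adjusted p = 3.6e-05).

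**Figure D3:**
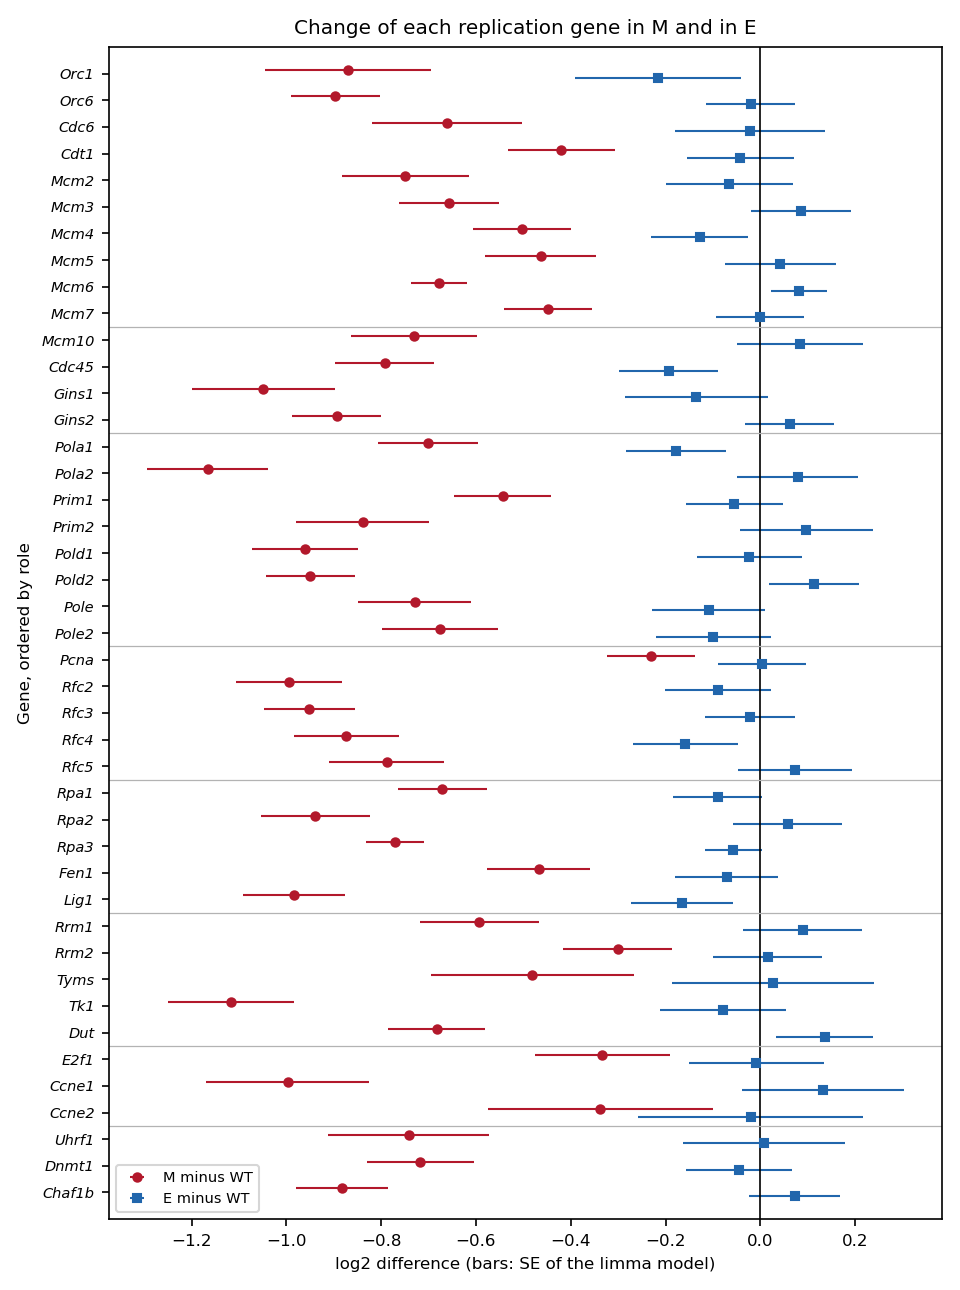
Log2 difference of each of 43 replication genes, ordered by role, for M minus WT (red circles) and E minus WT (blue squares), with bars of 1 SE from the limma model over 9 arrays. Red points run from -1.17 for Pola2 to -0.23 for Pcna, and blue points lie within -0.22 and 0.14.

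In E against WT, the replication genes showed no change that passed the test. Limma called 0 of 43 members at an adjusted p under 0.05, where 2.11% of all genes tested were called in either direction. Before adjustment, 0 members had a limma p under 0.05, as against 1279 of the 9097 genes tested. The median difference was -0.02, beside 0.01 for all genes, with a range of -0.22 for Orc1 to 0.14 for Dut, 25 members below 0 and 18 above. The SE was 0.06 for Mcm6 and 0.24 for Ccne2, the ends of its range. Each SE came from the spread within groups over all 9 arrays, so M arrays outside this comparison also set it. Members spread more over M arrays (median SD of 0.26) than over E arrays (0.06) or WT arrays (0.07). A small change in E could therefore miss the call, and a fit to WT and E arrays alone was not run. Arrays did not overlap in 5 members that were lower in E (Orc1, Mcm4, Cdc45, Rfc4 and Lig1) and in 5 that were higher (Mcm3, Pold2, Dut, Ccne1 and Chaf1b), against 14.7% of all genes lower and 15% higher. Orc1 read 10.45, 10.33 and 10.43 in E, against 10.58, 10.67 and 10.63 in WT, a difference of -0.22 ± 0.18 (SE, adjusted p = 0.631). Dut read 14.11, 14.17 and 14.10 in E, against 13.96, 13.97 and 14.04 in WT, a difference of 0.14 ± 0.10 (SE, adjusted p = 0.603). When limma was refitted under other settings or with 1 array left out, the lowest adjusted p was 0.0590 for Orc1 and 0.0817 for Dut.

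Against E, which shares its M arrays with the comparison against WT, 40 of 43 members were lower in M and 0 were higher, where 43.9% of all genes tested were lower. The median was -0.71, beside -0.19 for all genes, with a range of -1.24 to -0.23. Every M array lay below every E array in 40 members, as in 45.9% of all genes. Pola2 differed by -1.24 ± 0.13 (SE, adjusted p = 6.73e-06), Ccne1 by -1.13 ± 0.17 (SE, adjusted p = 0.000134), Mcm6 by -0.76 ± 0.06 (SE, adjusted p = 8.3e-07) and Pcna by -0.23 ± 0.09 (SE, adjusted p = 0.0406). The Pcna call was lost without M3 (-0.12, adjusted p = 0.0875), without any single E array and without WT1 or WT2 (adjusted p of 0.0544 to 0.114). The Rrm2 call was lost without any single E array (adjusted p of 0.0501 to 0.0993), and without M3 its difference was -0.16 (adjusted p = 0.0316). Values that did not pass were -0.51 ± 0.21 (SE, adjusted p = 0.0522) for Tyms, -0.32 ± 0.14 (SE, adjusted p = 0.0613) for E2f1 and -0.32 ± 0.24 (SE, adjusted p = 0.251) for Ccne2, the genes whose M and E arrays overlapped.

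Whether the step to M exceeded the step to E was tested as the difference between M minus E and E minus WT, which share the E arrays. In 27 of 43 members the later step was lower and in 0 it was higher, with a median of -0.66, beside -0.18 for all genes, where 30.6% of all genes were lower in this sense. Mcm6 (-0.84, adjusted p = 6.8e-05) and Orc6 (-0.86, adjusted p = 0.00121) were among the 27, and Orc1 (-0.44, adjusted p = 0.254) was not. With each array left out in turn the count ran from 19 to 32, and it was 32 without M3.

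Array M3 stood apart from M1 and M2 for these genes and also over all genes tested. Over all genes, the root mean square difference averaged 0.44 between M3 and the other M arrays, against 0.21 between M1 and M2. Over the members these values were 0.51 and 0.10. In 42 of 43 members M3 read below both other M arrays, and in 0 above both, where 45.6% of all genes tested lay below both and 38.7% above. The median difference of M3 from the mean of M1 and M2 was -0.45 for the members and -0.03 for all genes, while M1 and M2 differed by a median of 0.06 among the members. Members had a median SD of 0.07 over WT arrays, 0.06 over E arrays and 0.26 over M arrays. With 1 array there is no replicate, so these are values without a test. Mcm6 was the exception on its brightest probe set, at 12.95 in M3, against 12.92 in M1 and 12.95 in M2. On its other bright probe set, of nearly equal signal, M3 also lay below both, at 12.73 against 13.26 in M1 and 13.26 in M2.

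**Figure D4:**
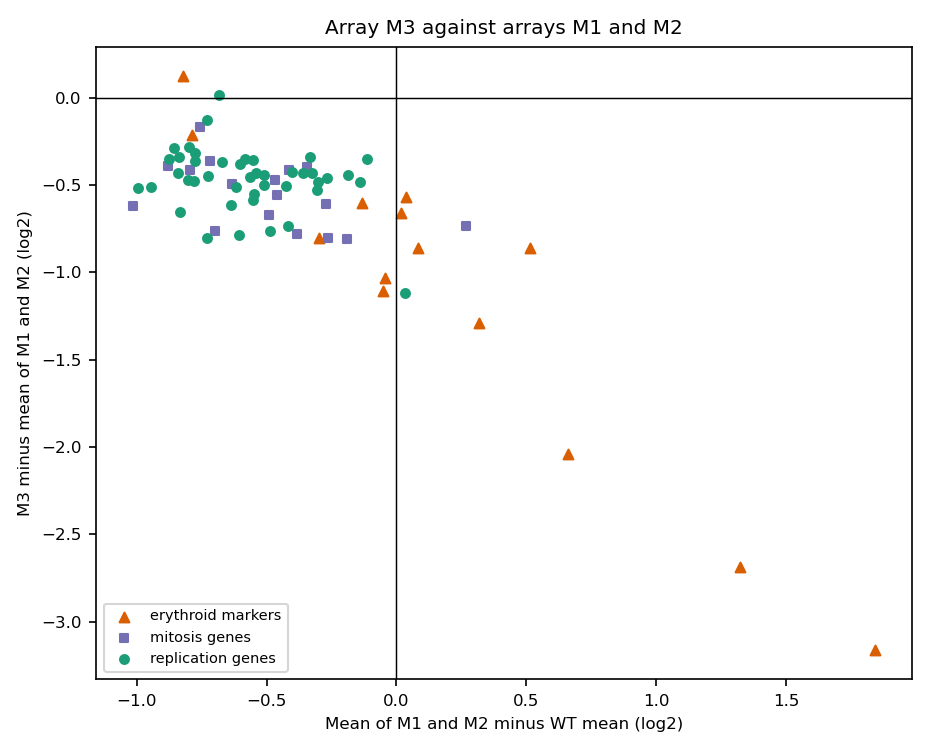
Each point is a gene: the mean of M1 and M2 minus the WT mean (x axis, log2) against M3 minus the mean of M1 and M2 (y axis, log2), for replication genes (green circles), mitosis genes (purple squares) and erythroid markers (orange triangles). Of the replication genes, 42 lie below 0 on the y axis, and 6 erythroid markers lie below -1 on it.

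The members did not shift alike in M3, and on their brightest probe sets both E cyclins lay at one end. The M3 difference was -1.12 for Ccne2, -0.80 for Ccne1, -0.79 for Orc1, -0.76 for Uhrf1 and -0.73 for Cdc6. On the other bright probe set of Ccne1, M3 lay between M1 and M2, at 10.93 against 10.82 and 12.07. At the other end stood -0.13 for Rpa3 and -0.28 for Gins2. Other lists differed in M3 as well: 17 of 17 mitosis genes lay below both other M arrays (median -0.56), as did 13 of 14 erythroid markers (median -0.86), and 11 of 11 pan-leukocyte markers lay above both (median 0.64). The summed erythroid signal was 58732 in M3, against 117449 in M1 and 110507 in M2, and the summed signal of the 43 members was 188154 in M3, against 258396 and 253388. The poly-A controls averaged 10.04 in M3, against 10.44 in M1 and 9.88 in M2. The part of these differences in the M3 values was not tested. Leaving M3 out, 38 of 43 members were lower in M than in WT, with a median of -0.58, where 43.7% of all genes tested were lower.

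Other probe sets of the same genes give a further reading. For 27 members, 35 further probe sets were bright enough to use, and all 35 had a lower mean in M than in WT, with a median of -0.75 against -0.68 for the brightest probe sets of those genes. Of the 9097 genes tested, 5597 had a difference below 0 on their brightest probe set. Among the 35, the difference was further below 0 than on the brightest probe set in 25 cases and nearer to 0 in 10. Another 16 probe sets of the members were dimmer than the limit of the test, 14 of them below 0 and 2 above. For Rrm2 the log2 difference was -0.30 on the brightest probe set and -0.92 on another, for E2f1 -0.33 and -0.94, and for Mcm7 -0.45 and -0.97. For Orc1 the order was the other way, at -0.87 and -0.27. Mcm3 had 4 further probe sets, 3 of them further below 0 than its brightest at -0.66 and 1 nearer to 0, and they ran from -0.92 to -0.05. Single further probe sets were not tested. With the mean of the bright probe sets, a setting added after the data were seen, E2f1 (adjusted p = 0.0122) and Tyms (adjusted p = 0.0340) were lower in M.

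**Figure D5:**
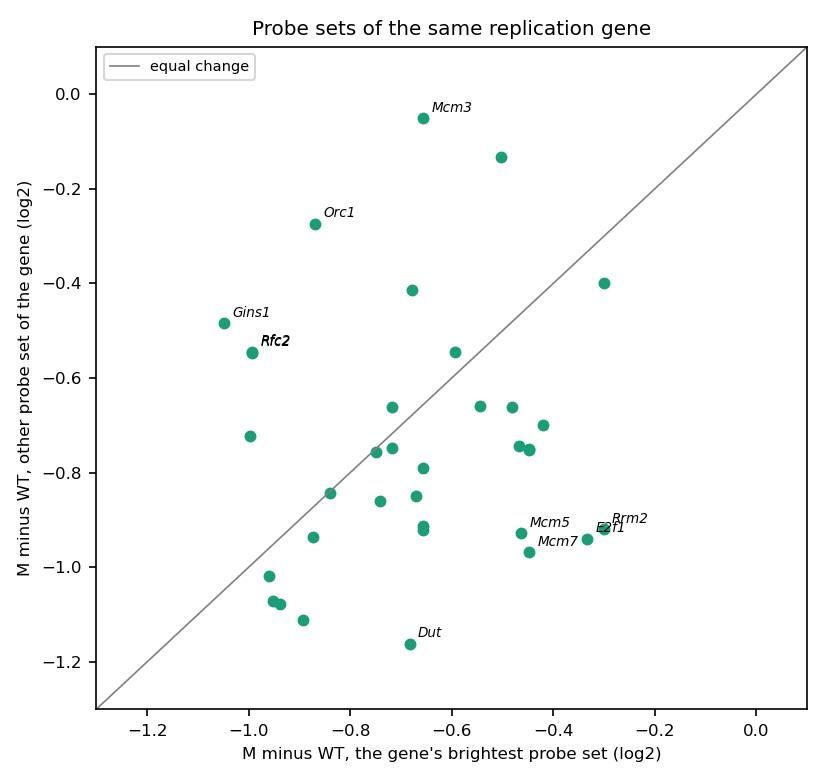
Log2 difference M minus WT on the brightest probe set of a replication gene (x axis) against that on another bright probe set of the same gene (y axis), for 35 probe sets of 27 genes; the line marks equal change. All points lie below 0 on both axes, with 25 below the line.

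Members with a higher signal differed less between M and WT. Over 43 members, which share arrays and scaling, the WT mean and the M minus WT difference had a Pearson r of 0.33 and a Spearman rho of 0.51. The 10 members with the highest WT signal had a median change of -0.47 and the 10 with the lowest -0.83. By promoter, the 14 members whose promoter held an E2F element were lower in 14 of 14, with a median of -0.69, and those with a listed promoter without one in 20 of 22, with a median of -0.76.

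Most other replication and mitosis genes were also lower in M. Of 51 tested genes among 54 other replication genes, 43 were lower (84.3%) and 1 higher than in WT, with a median of -0.63, beside 43.5% lower, 25.3% higher and a median of -0.19 over all genes. Rnaseh2a, which removes RNA from DNA, differed by -1.07 ± 0.07 (SE, adjusted p = 2.58e-07), Rfc1, the large loader subunit, by -0.95 ± 0.07 (SE, adjusted p = 7.74e-07), Tipin, of the fork protection complex, by -0.82 ± 0.06 (SE, adjusted p = 8.26e-07), and Pole3, a polymerase epsilon subunit, by -0.77 ± 0.07 (SE, adjusted p = 2.32e-06). The higher gene, named after its values were seen, was Rrm2b, the p53-induced ribonucleotide reductase subunit, at 0.83 (adjusted p = 0.000234), and 0 were higher when arrays were scaled to the control RNAs or centred. Of 17 mitosis genes tested, 16 were lower (94.1%, median -0.65), among them the mitotic kinase Cdk1, at -0.84 ± 0.09 (SE, adjusted p = 1.51e-05), and Plk1, at -1.01 ± 0.10 (SE, adjusted p = 7.54e-06). Mki67, the Ki-67 proliferation marker, did not pass: it read 13.26, 13.24 and 13.32 in WT, 12.99, 12.88 and 13.24 in E and 13.69, 13.39 and 12.81 in M, a difference of 0.03 ± 0.18 (SE, adjusted p = 0.907). M1 and M2 lay above WT and M3 below, and without M3 1 mitosis gene, Mki67, was higher.

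Of 26 tested regulators of G1 and of the retinoblastoma pathway, 14 were lower (53.8%) and 9 higher (34.6%) in M than in WT. These shares lie near the 43.5% and 25.3% of all genes, and the counts are not read as a result about the list. The median difference was -0.37 and the range -1.05 to 6.27, and the gene at 6.27 is not among those named below. Cdkn1a, the CDK inhibitor p21, read 8.90, 8.89 and 8.73 in WT, 8.41, 8.44 and 8.58 in E and 11.78, 11.85 and 11.94 in M, far above the other groups on every M array, and its difference was 3.02 ± 0.09 (SE, adjusted p = 1.19e-09), or 8.09-fold. Cdkn1c, the inhibitor p57, differed by 2.47 ± 0.25 (SE, adjusted p = 7.94e-06). Ccnd1, cyclin D1, read 8.22, 8.13 and 8.28 in WT, 7.57, 7.52 and 7.80 in E and 9.89, 9.86 and 10.41 in M, a difference of 1.85 ± 0.16 (SE, adjusted p = 1.76e-06), and Cdk4, its kinase, differed by -0.86 ± 0.09 (SE, adjusted p = 7.95e-06). Ccnd2 (1.18, adjusted p = 2.9e-05) and Cdkn1b, the inhibitor p27 (1.04, adjusted p = 2.92e-05), were higher as deposited, but their changes lie near the 1.01 by which scaling to the control RNAs lowers M. Under that scaling 4 genes of the list were higher, and under median centring also 4.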

How the data were processed

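Total RNA of 9 sorted marrow samples was labelled with a 3' labelling kit for Affymetrix mouse arrays, per the labels' protocols. The deposited values are log2 signals made with MAS5, per the submitters' processing notes, whose version is not given in the sources used here. They were used as deposited, so the pseudocount of 16 planned for linear values served only as an alternative. Array precision is limited by the number of arrays.

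Of 45101 probe sets, 34958 carried 1 gene symbol in the platform annotation, 932 several and 9211 were not listed, and only the first kind was used. Genes at or above the median of gene means (6.83, log2) entered the test, made with limma 3.58.1 under R 4.3.3 (3 groups, 9 arrays, intensity trend, two-sided, Benjamini-Hochberg), and SE values are those of the model. Fold changes are 2 to the power of the log2 difference. The fit was tested on simulated data. The p-values measure the spread between these samples, which the labels call biological replicates.

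Same-numbered arrays of different groups did not deviate together (r of -0.10 to 0.08 over 9 pairs), so replicate numbers were taken as names. No 2 arrays were identical. The members and the other lists were chosen with earlier results of these data known, and their counts are no independent support. All members may be named. Of other lists, genes are named if among the 4 smallest p of a comparison or in a fixed set of proliferation and cell type markers. Promoters are RefSeq's (GRCm38.p6). No chromosome 18 sequence is printed.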

Additional observations from a re-analysis of the deposited data

How the results depend on the processing

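The 43 members were refitted under 12 other settings and with each of the 9 arrays left out. With a stricter brightness filter 41 of them were tested, and with the mean of all probe sets of a gene 42. The count lower in M than in WT ran from 33 of 42, with the mean of all probe sets, to 43, and from 38 to 41 with 1 array left out. For M with E it ran from 33 to 43 and from 38 to 41, and E with WT gave 0 throughout. The count for the later step against the earlier ran from 19 to 32 with 1 array left out. With quantile normalization it was 19 of 43, where 35.5% of all genes tested were lower in this sense. Centring arrays on the median moved the members' median to 0.0705 in E with WT, -1.79 in M with WT, -1.86 in M with E, -1.89 for the later step against the earlier (43 members lower) and -0.61 for M3 against M1 and M2. The median of all genes then moved with it, to -1.24 in M with WT and -1.33 in M with E. For the later step it was -1.41, with 79.0% of all genes lower, and for M3 it was -0.20. Scaling to the poly-A controls moved the same medians to -1.74 in M with WT, -1.73 in M with E, -1.68 for the later step (43 lower) and -0.32 for M3. The medians of all genes were then -1.20 in M with WT and -1.21 in M with E. For the later step that median was -1.2, with 67.5% of all genes lower, and for M3 it was 0.09. Under both scalings, 0 other replication genes and 4 G1 regulators were higher in M than in WT. The stricter brightness filter, which tests fewer genes, gave the same 2 counts. The mean of all probe sets gave 0 higher replication genes and 9 lower G1 regulators. With 1 array left out, other replication genes higher in M numbered 1 to 2 (2 without M1) and mitosis genes 0 to 1 (1 without M3). The mean of all probe sets, which counts dim ones, turned the direction of Pola1 in M with WT (0.58, adjusted p = 0.202), of Pola2 in the later step (0.0163, adjusted p = 0.988) and of Prim2 in the later step (0.38, adjusted p = 0.624). Under it Cdt1, Chaf1b, Mcm6, Pcna, Pola2 and Rrm1 were no longer called in M with WT, and the cause was not tested. Quantile normalization called E2f1 (-0.58, adjusted p = 0.00750) and Tyms (-1.05, adjusted p = 0.00114) lower in M than in WT. Fitting replicate number as a block gave 39 members lower in M than in WT, 39 lower in M than in E and 25 for the later step. The Pcna call in M with WT was also lost with the replicate block (adjusted p = 0.0777), without the trend (adjusted p = 0.0846), without the filter (adjusted p = 0.0724) and with array weights (adjusted p = 0.0750), and that in M with E under the same settings and quantile normalization (adjusted p of 0.0652 to 0.109).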
